A study of Mus musculus with 6 samples.

Results

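The 9 genes described here encode the receptor of interleukin-10 (IL-10), its kinases, the transcription factor STAT3 and genes that STAT3 is known to induce: Il10ra, Il10rb, Il6st, Jak1, Tyk2, Stat3, Socs3, Pim1 and Bcl3. They were chosen by name, with earlier results of these data known. All 9 were among the 15898 genes of the deposited count table. The cells came from 2 groups, 4 libraries of IL-10/Fc-treated mice and 2 libraries of mice given phosphate-buffered saline (PBS). IL-10/Fc joins IL-10 to the Fc domain of an antibody and was injected beside the tumour at 20 µg every other day from day 10, in 4 injections, with PBS injected on the same days in the other group. In both groups, C57BL/6 hosts had received total body irradiation of 4 Gy, naive Thy1.1+ PMEL T cells, B16F10 melanoma cells and, on day 10, activated Thy1.2+ PMEL CD8+ T cells. The Thy1.1+ PMEL cells carry the transgene Tg(TcraTcrb)8Rest on the strain B6.Cg-Thy1a/Cy. PMEL cells bear 1 transgenic receptor for the melanocyte antigen gp100, so the data describe a single T cell specificity in irradiated hosts. On day 18, Thy1.1+PD-1+TIM-3+CD8+ tumour-infiltrating cells, labelled as terminally exhausted, were sorted, with 500 cells going into every Smart-Seq2 library. Whether separate mice gave the 6 libraries is not stated in the labels, and the p-values therefore reflect the spread among libraries alone, which may be technical. Since RNA was measured in bulk, fewer cells of a type and less RNA per cell cannot be told apart.

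IL-10 binds the ligand-specific chain IL-10Rα (Il10ra) and then recruits IL-10Rβ (Il10rb), a chain that other cytokines of the IL-10 family share. JAK1 sits on the first chain and TYK2 on the second, and together they phosphorylate STAT3, which enters the nucleus as a dimer. SOCS3 is induced by STAT3 and inhibits receptors that contain gp130 (Il6st), the shared chain of the interleukin-6 family, which also signals through STAT3. PIM1 is a serine/threonine kinase that promotes survival, and BCL3 is a nuclear member of the IκB family that binds NF-κB dimers, both induced by cytokines that act through STAT proteins. In CD8+ T cells, IL-10 is known to act on activated cells that carry the receptor.

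The promoters of the 3 STAT3-induced genes are shown because STAT3 dimers are known to bind the spaced palindrome TTCNNNGAA. Each run covers 250 bases before to 50 bases after the gene's start, taken from RefSeq on GRCm38.p6, and capitals mark the motif. The motif reads the same on both strands, and 8.30% of the 32851 promoters of this length held it.
Socs3 (chr11:117969317-117969616, minus strand): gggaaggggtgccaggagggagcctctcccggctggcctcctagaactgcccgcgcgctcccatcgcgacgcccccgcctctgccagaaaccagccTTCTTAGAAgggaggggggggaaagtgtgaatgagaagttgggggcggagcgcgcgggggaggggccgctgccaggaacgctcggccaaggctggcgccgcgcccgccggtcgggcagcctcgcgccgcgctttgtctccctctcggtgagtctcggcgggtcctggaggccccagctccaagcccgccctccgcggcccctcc
Pim1 (chr17:29490535-29490834, plus strand): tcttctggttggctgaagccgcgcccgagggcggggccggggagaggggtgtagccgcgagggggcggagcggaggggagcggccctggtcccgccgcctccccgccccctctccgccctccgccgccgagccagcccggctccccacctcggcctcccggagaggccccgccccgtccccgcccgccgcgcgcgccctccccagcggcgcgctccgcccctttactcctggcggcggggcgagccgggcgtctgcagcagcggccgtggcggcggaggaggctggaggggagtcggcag
Bcl3 (chr7:19822706-19823005, minus strand): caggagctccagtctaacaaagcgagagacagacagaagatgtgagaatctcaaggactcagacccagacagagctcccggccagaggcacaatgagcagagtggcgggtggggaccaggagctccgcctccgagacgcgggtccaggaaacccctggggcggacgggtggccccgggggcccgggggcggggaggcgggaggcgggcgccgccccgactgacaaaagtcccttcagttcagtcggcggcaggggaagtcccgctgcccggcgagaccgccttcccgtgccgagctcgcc
Socs3 held 1 match, which began 154 bases before the RefSeq start, and neither Pim1 nor Bcl3 held one in this window. The window of Socs3 lies inside the span of the counted gene, 117966079 to 117970047. The bases around 117970047, where that gene model starts on the minus strand, were not searched. The second listed start of Pim1 and the promoters of Jak1, Tyk2, Stat3 and Il6st held none either, and those of Il10ra and Il10rb were not analysed here. These matches describe letters in a window and not binding.

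Depth was 26738871 to 36941814 counts per library. Levels are given as CPM, a gene's share of the library's counts over the genes tested. Library sizes were scaled by the trimmed mean of M-values (TMM), and 3 counts, taken as the detection floor, equalled 0.0855 to 0.108 CPM. The sorted identity was checked on 10 markers of CD8+ T cells and of exhaustion, all of which were measured, among them Cd3d, Cd8a, Pdcd1 (PD-1) and Havcr2 (TIM-3). Their summed level was 12991 to 14650 CPM in the IL-10/Fc libraries and 6991 and 10898 CPM in PBS replicates 1 and 2, so the groups did not overlap, and PBS replicate 1 stood lowest. Of these markers 6 lay higher in IL-10/Fc without overlap, namely Cd3d, Cd3e, Cd3g, Cd8a, Cd8b1 and Thy1. Pdcd1 lay lower, at 700 to 1112 CPM in IL-10/Fc against 1578 and 1286 CPM in PBS. Of all genes tested, 12.1% lay higher and 11.5% lower without overlap. The exhaustion markers Havcr2, Lag3 and Tox overlapped between the groups, Tox with 20.1 to 181 CPM in IL-10/Fc and 33.1 and 481 CPM in PBS. Markers of macrophages and monocytes summed to 275 to 1212 CPM in IL-10/Fc and to 345 and 509 CPM in PBS. Of the 17 tested, 15 had a positive log2 fold change, as had 7635 of all 15477 genes tested. Without overlap, 6 of the 17 lay higher and 0 lower, beside the shares of 12.1% and 11.5% above. EdgeR called 0 of the 17 and 1 of all genes. Markers of dendritic cells and MHC class II summed to 172 to 1915 CPM in IL-10/Fc and to 228 and 310 CPM in PBS. NK cell markers summed to 1008 to 1993 CPM in IL-10/Fc and to 636 and 1284 CPM in PBS, nearly all on Gzma and Klre1, which CD8+ T cells also express.

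The treatment was compared with PBS for the genes that receive and carry its signal. The ligand-binding receptor chain Il10ra lay lower in IL-10/Fc, with a mean of 17.1 CPM (SD 3.90, n = 4) against 60.8 CPM in PBS (SD 25.0, n = 2). Its partner Il10rb averaged 34.9 CPM in IL-10/Fc (SD 6.61, n = 4) and 32.8 CPM in PBS (SD 3.16, n = 2). The kinase genes Jak1 and Tyk2 and the target Pim1 lay higher in every IL-10/Fc library than in either PBS library. Stat3, Socs3, Bcl3 and Il6st overlapped between the groups. With edgeR's quasi-likelihood test, adjusted over 15477 genes by Benjamini-Hochberg, 0 of the 9 passed 0.05 in either direction, where 0.00646% of all genes passed as higher and 0% as lower. At an unadjusted p under 0.05 there were 2 members higher (Jak1 and Pim1) and 1 lower (Il10ra), where 7.2% and 5.52% of all genes were. Limma-voom called 0 of the 9, where it called 1 of all 15477 genes higher and 0 lower. DESeq2's Wald test called 2 higher and 1 lower, the same 3 genes, where it called 3.22% of all genes higher and 1.51% lower, and the authors' deposited table called these 3 as well, with 3.57% and 1.72% of its genes called. The groups did not overlap for 3 members that lay higher and 1 that lay lower, where 12.1% and 11.5% of all genes tested did not overlap, 23.6% in all. The median log2 fold change of the 9 was 0.62, with 7 above 0, and that of all genes tested was -0.0079.

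**Figure D1:**
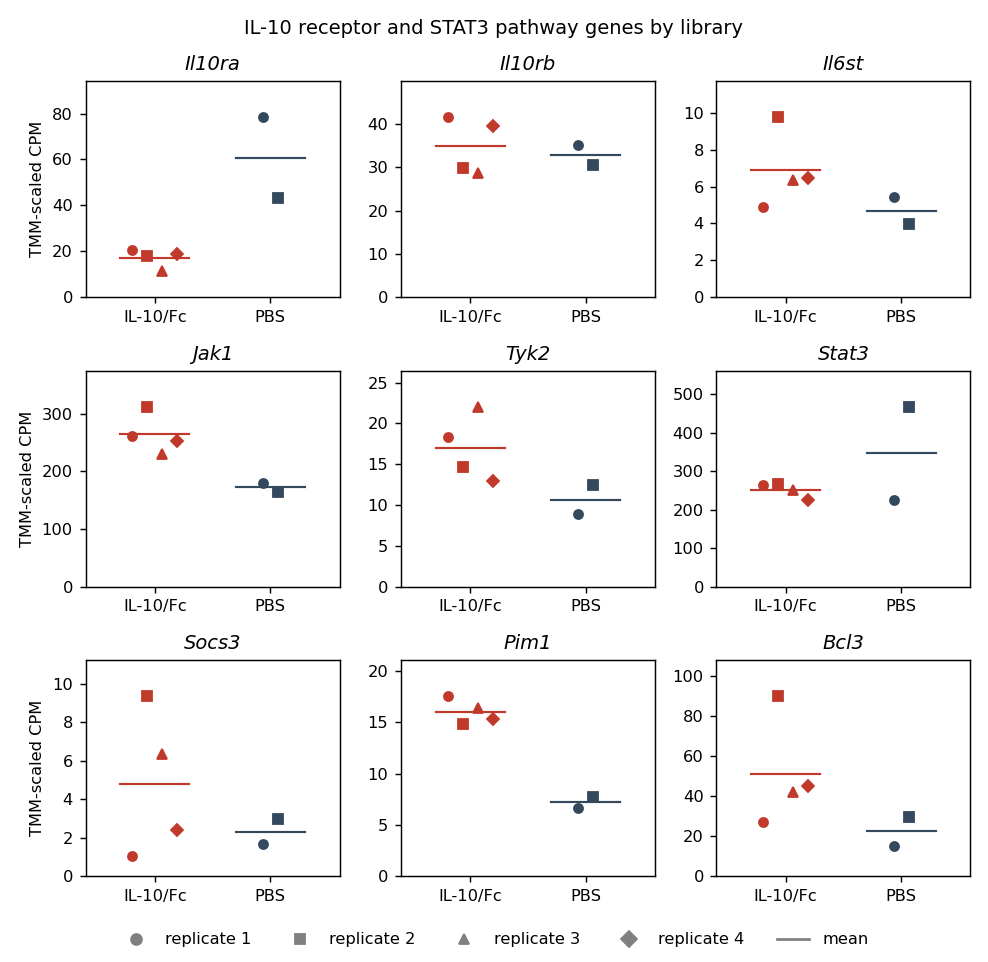
Level of each of the 9 genes in every library in TMM-scaled CPM (y axis, linear, from 0), with IL-10/Fc left of PBS, 1 marker shape per replicate and a bar at the group mean. Il10ra is at 20.4 CPM or less in the 4 IL-10/Fc libraries and at 43.1 and 78.5 CPM in PBS, and Stat3 in PBS replicate 2 stands apart from the other 5 libraries.

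**Figure D2:**
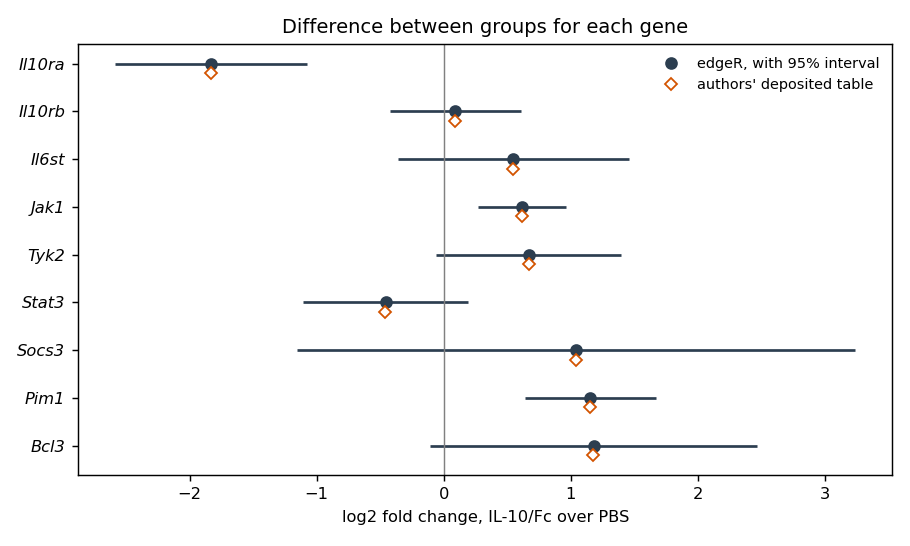
Log2 fold change of each gene, IL-10/Fc over PBS (x axis), from edgeR with its 95% interval (points and lines) and from the authors' deposited table (open diamonds). The intervals of Il10ra, Jak1 and Pim1 leave out 0, and that of Socs3 is the widest, from -1.15 to 3.24.

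Il10ra (ENSMUSG00000032089, chromosome 9, 45253837 to 45269149, minus strand, GRCm38) encodes the chain that gives the receptor its specificity for IL-10. It stood at 20.4, 17.8, 11.5 and 18.6 CPM in IL-10/Fc replicates 1 to 4 and at 78.5 and 43.1 CPM in PBS replicates 1 and 2. Every IL-10/Fc library was below both PBS libraries, and the PBS pair differed more from each other than the 4 IL-10/Fc libraries did. The mean in IL-10/Fc was 0.281 times that in PBS, with a log2 fold change of -1.83 (SE 0.31, 95% interval -2.59 to -1.08) and an edgeR quasi-likelihood adjusted p of 0.158, at rank 87 of 15477 by p. Among the 5974 genes with at least 20 CPM in 2 libraries it had a log2 fold change of -1.86 and an adjusted p of 0.0422 by edgeR, the sole member of the 5 tested there under 0.05, where 0.268% of genes passed as lower and 0.737% as higher. It met that filter only through the 2 PBS libraries, in which it was high, so this value gives no support to a difference. Over the other settings of edgeR and limma-voom its adjusted p ran from 0.0973 to 0.612. By DESeq2 the adjusted p was 2.45e-05, and the authors' deposited table gave a log2 fold change of -1.83 with an adjusted p of 2.2e-05. Without PBS replicate 1 the log2 fold change was -1.34 (edgeR's quasi-likelihood test, adjusted p = 0.387), and without PBS replicate 2 it was -2.20 (adjusted p = 0.0973).

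PBS replicate 1, with the highest Il10ra, also had the lowest summed CD8+ T cell markers, and the part of that difference in the Il10ra result was not tested. Of the 17 macrophage and monocyte markers, 6 lay above both PBS libraries and 9 below both in IL-10/Fc replicate 1, which had 20.4 CPM of Il10ra. Replicate 2 had 13 above both and 2 below, with 17.8 CPM of Il10ra. In replicate 3, 14 lay above both and 0 below, with 11.5 CPM of Il10ra. For replicate 4 these counts were 15 and 0, with 18.6 CPM of Il10ra. The share of all genes so placed was not counted for single libraries. The part of these markers in the Il10ra result was not tested.

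Il10rb (ENSMUSG00000022969, chromosome 16, 91406164 to 91425834, plus strand) encodes the accessory chain that several family members share. It stood at 41.6, 29.8, 28.7 and 39.6 CPM in IL-10/Fc and at 35.1 and 30.6 CPM in PBS. Both PBS values lay within the IL-10/Fc range. The log2 fold change was 0.090 (SE 0.21, 95% interval -0.43 to 0.61, edgeR adjusted p = 0.923), an interval that still allows moderate differences in either direction, and it was -0.085 when libraries were scaled by size alone. Of the merged exons of Il10rb, 14.9% overlap the gene model Gm21970 on the same strand, so reads there could be split between models.

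Per kilobase of merged exons, a rough scale for comparing genes because the length of the expressed transcripts was not measured, the order of the pair differed between the groups. Il10ra stood at 0.534, 0.652, 0.434 and 0.512 times the level of Il10rb in IL-10/Fc replicates 1 to 4 and at 2.44 and 1.54 times in PBS replicates 1 and 2. By this measure the ligand-binding chain was below its partner in all 4 IL-10/Fc libraries and above it in both PBS libraries. Which of the 2 transcripts was more abundant depends on the lengths used, whereas the difference in ratio between the groups does not. These ratios rest on the same Il10ra counts as the fold change and carry no test of their own.

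Il6st (ENSMUSG00000021756, chromosome 13, 112464070 to 112510086, plus strand), the gp130 chain, was the least abundant of the 9 per length. It stood at 4.89, 9.77, 6.38 and 6.44 CPM in IL-10/Fc and at 5.43 and 3.95 CPM in PBS. IL-10/Fc replicate 1 lay between the PBS values and the other 3 lay above both. The log2 fold change was 0.55 (SE 0.38, 95% interval -0.36 to 1.46, edgeR adjusted p = 0.613).

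Jak1 (ENSMUSG00000028530, chromosome 4, 101152367 to 101265282, minus strand), the kinase bound to IL-10Rα and to gp130, stood at 262, 312, 230 and 252 CPM in IL-10/Fc and at 180 and 165 CPM in PBS. The lowest IL-10/Fc library was above the higher PBS library. Its log2 fold change was 0.62 (SE 0.14, 95% interval 0.27 to 0.96) with an edgeR adjusted p of 0.21. DESeq2 gave an adjusted p of 0.00632 and 0.00845 was the value in the authors' deposited table. DESeq2 kept the call without any single library but PBS replicate 2, where the adjusted p was 0.0642 at a log2 fold change of 0.56.

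Tyk2 (ENSMUSG00000032175, chromosome 9, 21104068 to 21131243, minus strand), the kinase bound to IL-10Rβ, stood at 18.3, 14.6, 22.0 and 12.9 CPM in IL-10/Fc and at 8.90 and 12.4 CPM in PBS. The groups were separated by a small gap, between IL-10/Fc replicate 4 and PBS replicate 2, and overlapped with scaling by library size only. The log2 fold change was 0.67 (SE 0.30, 95% interval -0.061 to 1.40, edgeR adjusted p = 0.43). Neither DESeq2 (adjusted p = 0.32) nor the authors' deposited table (adjusted p = 0.276) called it. Per length, Jak1 was 9.93 to 20.3 times as abundant as Tyk2 in IL-10/Fc and 19.2 and 12.6 times in PBS, so this balance overlapped between the groups.

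Stat3 (ENSMUSG00000004040, chromosome 11, 100885098 to 100939540, minus strand), the transcription factor that the receptor activates, stood at 264, 268, 252 and 226 CPM in IL-10/Fc and at 226 and 468 CPM in PBS. PBS replicate 1 lay beside IL-10/Fc replicate 4, and PBS replicate 2 stood far above the other 5 libraries. The log2 fold change of -0.46 (SE 0.27, 95% interval -1.11 to 0.19, edgeR adjusted p = 0.542) therefore depended on which PBS library was read. Without PBS replicate 2 it turned to 0.16 (edgeR adjusted p = 0.653), and without PBS replicate 1 it was -0.89 (edgeR adjusted p = 0.305). With DESeq2 and without PBS replicate 1, Stat3 passed as lower (adjusted p = 5.2e-06), a call that assumes the remaining PBS library varies like the IL-10/Fc libraries. These values are transcript levels and say nothing of STAT3 phosphorylation.

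**Figure D3:**
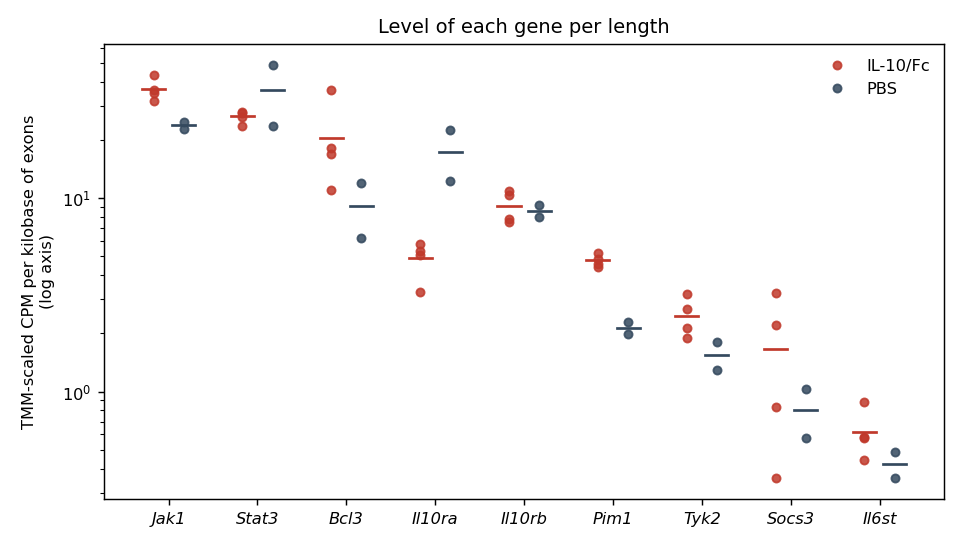
Level of each gene in TMM-scaled CPM per kilobase of merged exons (y axis, log scale), genes ordered by their mean over the 6 libraries, with 1 point per library, IL-10/Fc left of PBS, and bars at group means. Jak1 and Stat3 head the order and Il6st ends it, and Il10ra is the gene whose groups lie farthest apart.

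Pim1 (ENSMUSG00000024014, chromosome 17, 29490812 to 29496111, plus strand) was the STAT-induced gene with the tightest replicates. It stood at 17.5, 14.9, 16.4 and 15.4 CPM in IL-10/Fc and at 6.66 and 7.74 CPM in PBS. The gap between the groups was wider than the range within either. The IL-10/Fc mean was 2.23 times that of PBS, with a log2 fold change of 1.15 (SE 0.21, 95% interval 0.64 to 1.67) and an edgeR adjusted p of 0.174. DESeq2 gave an adjusted p of 2.85e-04, and the authors' deposited table gave 3.12e-05. DESeq2 missed the threshold without PBS replicate 1 (adjusted p = 0.0577) and passed without each of the other 5 libraries. An antisense gene, Gm26885, overlaps 14.5% of the merged exons of Pim1 in GENCODE M21. Smart-Seq2 does not mark strand, so reads of the 2 cannot be told apart there. GENCODE M21 gives Pim1 other coordinates than the deposited table, so its overlap and length are approximate.

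Socs3 (ENSMUSG00000053113, chromosome 11, 117966079 to 117970047, minus strand), the feedback inhibitor, was scarce, with 31 to 268 counts per library. It stood at 1.04, 9.35, 6.38 and 2.39 CPM in IL-10/Fc and at 1.66 and 2.97 CPM in PBS. IL-10/Fc replicate 1 was the lowest of all 6 libraries and replicate 2 the highest, so the groups overlapped fully. The log2 fold change of 1.04 (SE 0.91, 95% interval -1.15 to 3.24, edgeR adjusted p = 0.712) ranged from 0.49 without IL-10/Fc replicate 2 to 1.52 without PBS replicate 2. Macrophage and monocyte markers, from cells that also express Socs3, summed to 275, 605, 1212 and 1211 CPM in IL-10/Fc replicates 1 to 4, and their part in the spread of Socs3 was not tested.

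Bcl3 (ENSMUSG00000053175, chromosome 7, 19808462 to 19822770, minus strand) stood at 27.3, 89.7, 41.8 and 45.1 CPM in IL-10/Fc and at 15.4 and 29.6 CPM in PBS. The sole overlap was that of IL-10/Fc replicate 1 with PBS replicate 2. The log2 fold change was 1.18 (SE 0.53, 95% interval -0.11 to 2.47, edgeR adjusted p = 0.43), at 0.76 without IL-10/Fc replicate 2, at 0.78 without PBS replicate 1 and at 1.73 without PBS replicate 2. In the authors' deposited table its adjusted p was 0.154. Socs3, Bcl3 and Il6st had in common that IL-10/Fc replicate 2 was the highest and replicate 1 the lowest of the 4, whereas Pim1 was lowest in replicate 2 and highest in replicate 1.

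**Figure D4:**
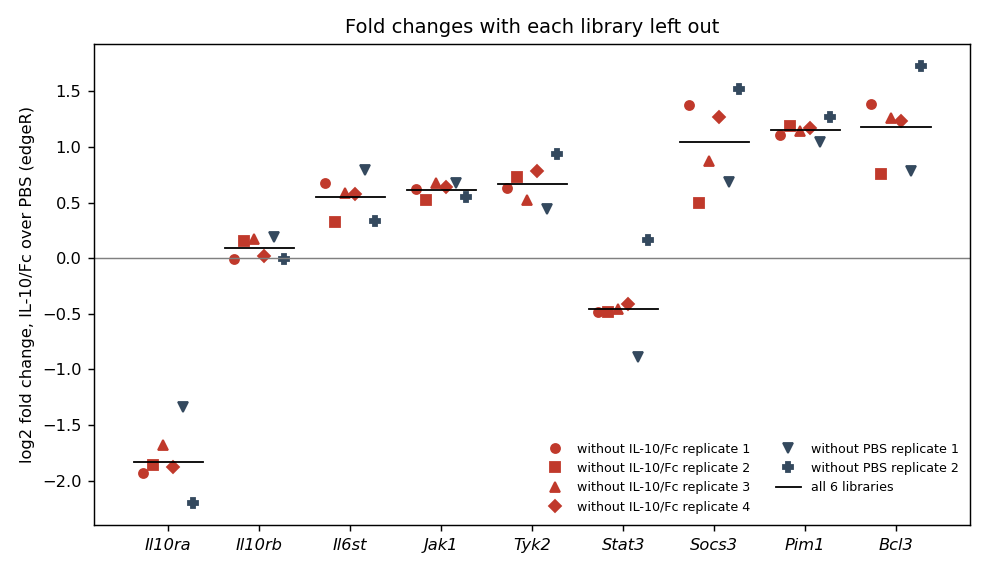
Log2 fold change of each gene by edgeR (y axis) with each library left out in turn, red where an IL-10/Fc library and dark where a PBS library was left out, and a black bar for all 6 libraries. Il10ra stays below 0 and Jak1, Tyk2 and Pim1 above it, while Stat3 crosses 0 without PBS replicate 2.

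Ordered by level per length in IL-10/Fc, the 9 genes ran Jak1 (36.5 CPM per kilobase), Stat3 (26.5), Bcl3 (20.6), Il10rb (9.17), Il10ra (4.88), Pim1 (4.77), Tyk2 (2.47), Socs3 (1.66) and Il6st (0.619). Neighbours overlapped in range for Stat3 and Bcl3, for Il10ra and Pim1, for Tyk2 and Socs3, and for Socs3 and Il6st. In PBS the order was Stat3 (36.4 CPM per kilobase), Jak1 (23.9), Il10ra (17.4), Bcl3 (9.09), Il10rb (8.62), Pim1 (2.14), Tyk2 (1.55), Socs3 (0.802) and Il6st (0.423). There Stat3 overlapped Jak1 and Bcl3 overlapped Il10rb. Il10ra stood below Il10rb and Bcl3 in IL-10/Fc and above both in PBS.

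The rest of the pathway was read from 6 lists of 91 genes, of which 77 were tested. These lists too were chosen with earlier results of these data known, so their counts are a description. By edgeR's quasi-likelihood test 0 passed, where 1 of all 15477 genes did. Limma-voom called 0, where it called 1 of all genes higher and 0 lower. At an unadjusted p under 0.05, 9 lay higher and 9 lower, where 7.2% and 5.52% of all genes did. DESeq2 called 5 higher and 2 lower, where it called 3.22% and 1.51% of all genes, and 7 higher and 2 lower were called by the authors' deposited table, where 3.57% and 1.72% of its genes were. The median log2 fold change of the 77 was 0.10.

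Among the other JAK and STAT genes, 0 of 8 passed edgeR's test and the median log2 fold change was 0.24. Stat6, which carries signals of interleukin-4, stood at 20.4, 19.6, 14.4 and 16.4 CPM in IL-10/Fc against 32.0 and 32.5 CPM in PBS, a log2 fold change of -0.86 (SE 0.20, edgeR adjusted p = 0.206). The groups did not overlap, and the authors' deposited table called Stat6 lower (adjusted p = 0.00637). Stat4, the factor downstream of interleukin-12, stood at 271 CPM in IL-10/Fc (SD 22.8, n = 4) and 353 CPM in PBS (SD 29.9, n = 2) (edgeR adjusted p = 0.28).

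Of the 15 other inhibitors of JAK-STAT signalling, 0 passed, and their median was -0.068. Socs5 stood at 4.76, 4.85, 5.08 and 7.15 CPM in IL-10/Fc against 14.1 and 13.7 CPM in PBS, a log2 fold change of -1.35 (SE 0.27, edgeR adjusted p = 0.192), with no overlap. The authors' deposited table called it lower (adjusted p = 8.06e-04). Socs2, a feedback inhibitor of STAT5 signals, stood at 20.5, 35.2, 13.4 and 11.1 CPM in IL-10/Fc against 95.5 and 23.0 CPM in PBS (edgeR adjusted p = 0.392). PBS replicate 2 lay within the IL-10/Fc range. Ptpn2, a phosphatase that acts on JAK1 and STAT proteins, stood at 148 CPM in IL-10/Fc (SD 15.7, n = 4) and 125 CPM in PBS (SD 21.7, n = 2) (edgeR adjusted p = 0.574).

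Of 27 tested genes described elsewhere as induced by IL-10 or STAT3, 0 passed edgeR's test, and the median was 0.44. The list was chosen with earlier results of these data known, so the counts that follow describe it and do not test it. At an unadjusted p under 0.05, 8 lay higher and 2 lower, where 7.2% and 5.52% of all genes did, and 9 lay higher and 4 lower without overlap, where 12.1% and 11.5% did. The authors' deposited table had 6 of the 27 called higher and none lower, where 3.57% and 1.72% of all genes were, and DESeq2 called 5 higher and 0 lower, where it called 3.22% and 1.51%. Sbno2, a corepressor induced by IL-10 in macrophages, stood at 35.7, 51.4, 39.7 and 40.0 CPM in IL-10/Fc against 8.87 and 18.0 CPM in PBS, a log2 fold change of 1.63 (SE 0.33, edgeR adjusted p = 0.193). Mcl1, a survival protein of the BCL2 family, stood at 110, 105, 91.6 and 107 CPM in IL-10/Fc against 63.4 and 57.6 CPM in PBS (log2 fold change 0.77, SE 0.13, edgeR adjusted p = 0.153). Ikzf1, the lymphoid factor Ikaros, stood at 98.2 CPM in IL-10/Fc (SD 16.2, n = 4) and 51.1 CPM in PBS (SD 1.43, n = 2) (edgeR adjusted p = 0.19). The groups of these 3 genes did not overlap. Of the 17 macrophage and monocyte markers, 6, 13, 14 and 15 lay above both PBS libraries in IL-10/Fc replicates 1 to 4. Below both lay 9, 2, 0 and 0, and the share of all genes so placed was not counted. The part of these markers in the results for the 27 genes was not tested.

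Of the 7 tested genes of the IL-10 family cytokines and class II receptors 0 passed, with a median of 0.021. Ifngr1, the binding chain of the interferon-gamma receptor, stood at 2692 CPM in IL-10/Fc (SD 557, n = 4) and 2653 CPM in PBS (SD 218, n = 2) (log2 fold change 0.021, SE 0.19). The interferon type I receptor chains Ifnar1 and Ifnar2 had log2 fold changes of -0.17 (SE 0.23) and 0.44 (SE 0.22). In the gp130 family, 0 of 8 passed, and the cytokine gene Osm (oncostatin M) stood at 3.99, 11.9, 22.6 and 15.7 CPM in IL-10/Fc against 5.37 and 6.31 CPM in PBS (edgeR adjusted p = 0.506). Il27ra, the receptor of interleukin-27, overlapped, with a log2 fold change of 0.36 (SE 0.41).

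Of the 12 relatives of PIM1 and BCL3, 0 passed, and the median was -0.21. Pim2, a kinase related to PIM1, lay higher in each IL-10/Fc library, at 68.3, 134, 69.3 and 65.2 CPM, than in PBS, at 51.2 and 47.9 CPM (edgeR adjusted p = 0.419). The NF-κB subunit genes Rela and Relb lay lower without overlap, Rela with 47.2 CPM in IL-10/Fc (SD 4.60, n = 4) and 63.1 CPM in PBS (SD 2.13, n = 2) (edgeR adjusted p = 0.308), and Relb with 32.1 CPM in IL-10/Fc (SD 7.81, n = 4) and 51.9 CPM in PBS (SD 3.66, n = 2) (edgeR adjusted p = 0.33).

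**Figure D5:**
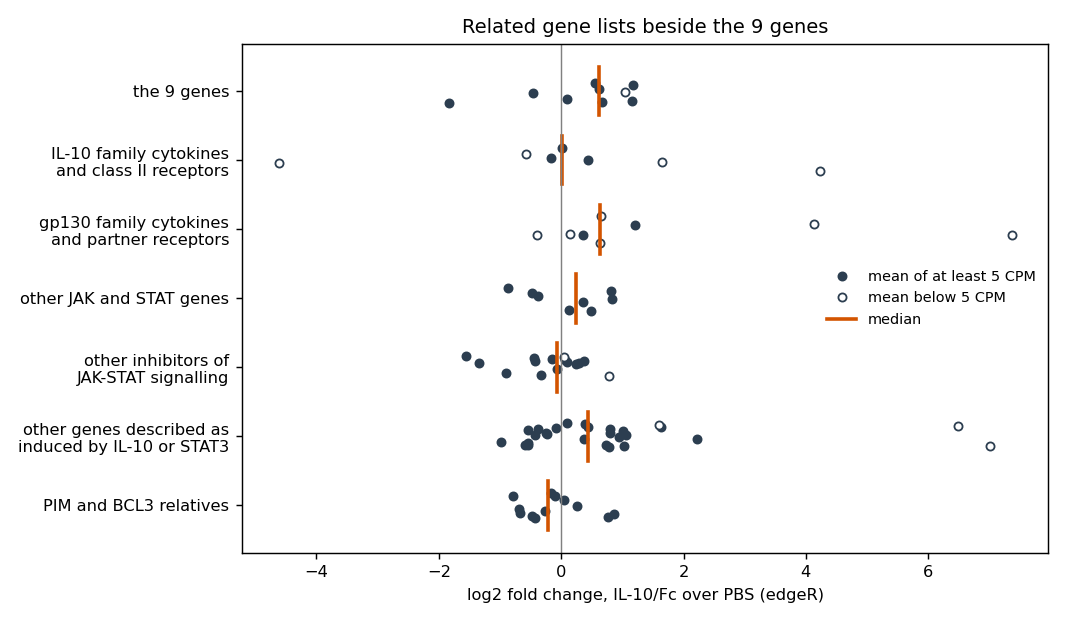
Log2 fold change of each tested gene, IL-10/Fc over PBS by edgeR (x axis), for the 9 genes and the 6 related lists (rows, with vertical jitter), filled where the mean over libraries was at least 5 CPM, with a bar at the list median. The medians run from -0.21 for the relatives of PIM1 and BCL3 to 0.64 for the gp130 family, and values beyond 3 in size belong to genes below 5 CPM.

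Genes with profiles most like those of 3 members were sought among genes with a mean of at least 20 CPM, by the mean absolute difference in centred log2(CPM + 1) over the 6 libraries. Nearest to Il10ra was Ramp3, a receptor activity-modifying protein, at a mean difference of 0.15, with 25.9, 16.0, 13.5 and 18.4 CPM in IL-10/Fc and 84.5 and 39.9 CPM in PBS. Pik3r1, a regulatory subunit of phosphoinositide 3-kinase, and Dnajb4, a chaperone of the HSP40 family, followed at 0.265 and 0.294. Nearest to Stat3 was Hspa9, a mitochondrial chaperone, at 0.070, which like Stat3 was highest in PBS replicate 2, at 165 CPM against 77.8 to 102 CPM in the other 5 libraries. Kctd5 and Rrp15 followed at 0.094 and 0.096. No gene of this pool came as near to Socs3, for which the closest, the histone gene Hist1h1b, was at 0.40, ahead of Zfp942 and Pus3 at 0.41 each. Socs3 itself averaged 3.97 CPM, below the limit of 20 CPM, so genes at its own level were not compared. These are descriptions over 6 libraries, chosen out of 4605 genes or more.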

How the data were processed

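RNA-seq libraries of 500 sorted cells (purity above 99%, per the labels' protocols) were made with Smart-Seq2, which does not mark strand or carry molecular identifiers, so the floor of 3 counts covers counting error only. The 95% intervals of log2 fold changes also include the spread between libraries. The authors deposited 1 file of whole-number gene counts a library, and a series table that repeats the counts and adds their normalized mean (a signal of 0 or more), log2 fold changes with standard errors, a Wald score, p-values and adjusted p-values. Per the submitters' processing notes, DESeq2, Cuffdiff, Cufflinks 2.2.1, TopHat2 2.1.1, Bowtie2 2.2.9 and Trimmomatic were used with GRCm38 (mm10). The read counter was not given in the sources used. The PBS columns of the series table are numbered 2 and 3 and the titles 1 and 2, and each library's own file and title were followed. The headers do not say why no PBS column is numbered 1.

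Genes were filtered with edgeR 4.0.16 (filterByExpr, 15477 of 15898 kept), scaled by TMM (factors 0.950 to 0.983 in IL-10/Fc, 1.06 and 1.10 in PBS) and tested with the quasi-likelihood test (robust, group as the sole term, two-sided, Benjamini-Hochberg at 0.05 over all genes). All 9 members passed the filter. Standard errors are the log2 fold change over the root of F. Exon lengths are merged exons of GENCODE M21, which shared the coordinates of the deposited table for 8 members but not for Pim1. RefSeq promoters matched 7 of 9 members. DESeq2 1.42.0, limma-voom 3.58.1, other scalings and filters, a fit with replicate number as block, one without the robust option and fits without single libraries were alternatives. The test was run on simulated counts with 200 changed genes, and it called 200 of them at a spread set lower than that of the data. Its power at the spread of the data is not given here. Members and lists were chosen with earlier results of these data known. The text names all members, up to 3 genes with the smallest p at 5 CPM or more per related list, and the 3 nearest profiles to Il10ra, Stat3 and Socs3. Others were chosen after their values were seen. 1 gene that this rule names is not reported here.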

Additional observations from a re-analysis of the deposited data

Results flagged for a closer look

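Among 35 sets of 4 IL-10/Fc values screened (the 9 genes, the named genes of the related lists and the summed markers), 2 held a library whose gap to its nearest neighbour was large against the whole range (Dixon's 95% critical value), and chance flags about 1 set in 20. Socs5 was at 7.15 CPM in IL-10/Fc replicate 4 and at 4.76 to 5.08 CPM in the other 3, all below both PBS libraries. Pim2 was at 134 CPM in IL-10/Fc replicate 2 and at 65.2 to 69.3 CPM in the other 3, all above both PBS libraries. Of the 9 genes none was flagged, although Bcl3 and Il6st were also highest in replicate 2, with ratios of 0.714 and 0.682.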

How the results depend on the processing

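Il10ra, Jak1, Pim1, Tyk2, Bcl3, Socs3 and Il6st kept their direction in every alternative of edgeR, DESeq2 and limma-voom that tested them; with at least 20 CPM in 2 libraries Tyk2, Socs3, Pim1 and Il6st were not tested, and the median of the 5 left was 0.068. Il10rb was -0.085 when scaled by library size alone and ran from -0.0062 (without IL-10/Fc replicate 1; -0.0053 without PBS replicate 2) to 0.19 with single libraries left out, and Stat3 from -0.89 to 0.16 (without PBS replicate 2). Scaling by library size only moved the median of all genes from -0.0079 to -0.18, the summed CD8+ T cell marker difference to 3823 CPM and that of fibroblast and endothelial markers to -12.4 CPM. The median of the 9 was 0.49 to 0.68 with single libraries left out. Over all genes, 1 was called higher and 0 lower by edgeR. These counts were 502 and 236 by DESeq2's Wald test, 44 and 16 at 20 CPM in 2 libraries, 0 higher with library size only, 0 higher without the robust option, 0 higher with the replicate block, and 0 to 12 higher and 0 to 4 lower without single libraries. Of the 9, DESeq2 called 2 higher and 1 lower, and the 20 CPM filter 1 lower, Il10ra, which met that filter only through the PBS libraries. DESeq2 without each library in turn, chosen after seeing the data, called 1 to 3 higher and 1 to 2 lower; Il10ra was called in all 6 of these fits, with log2 fold changes from -2.20 to -1.34, and the sign of Il10rb (-0.0095 and -3.69e-04) and Stat3 (0.17) turned in the same libraries as with edgeR. The cause of these differences was not tested. With the replicate number as a block, which leaves the group difference to replicates 1 and 2, the log2 fold changes were -1.61 for Il10ra, 0.73 for Jak1 and 1.17 for Pim1, and 0 members were called. The numbers pair the libraries in name only, with correlations of same-numbered deviations of 0.0615 and 0.0135.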

Other observations

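Several scarce genes of the related lists were chosen after their values were seen and are given as values. Il10 itself stood at 0.0335, 6.94, 9.73 and 1.40 CPM in IL-10/Fc replicates 1 to 4 and at 0.476 and 0 CPM in PBS replicates 1 and 2, so it overlapped between the groups (edgeR adjusted p = 0.502). Il20ra, a chain of other IL-10 family receptors, was at 0 in IL-10/Fc replicates 1 to 3 and at 0.2565 CPM in replicate 4, against 1.32 and 2.16 CPM in PBS (edgeR adjusted p = 0.361). Il27, a cytokine of the gp130 family, was at 0.0335 to 1.23 CPM in IL-10/Fc and at 0 in both PBS libraries, and the authors' deposited table called it higher (adjusted p = 0.0431). The macrophage marker Mrc1, also picked after its values were seen, had no counts in PBS and 0.0349 to 5.58 CPM in IL-10/Fc. It is 1 of 17 macrophage and monocyte markers, of which 15 had a positive log2 fold change and edgeR called 0. Without overlap, 6 of the 17 lay higher and 0 lower, where 12.1% and 11.5% of all genes did. Lyz2 averaged 134 CPM in IL-10/Fc (SD 69.4) and stood at 40.3 and 301 CPM in PBS replicates 1 and 2. Apoe averaged 23.6 CPM in IL-10/Fc (SD 19.2) and stood at 108 and 12.9 CPM in PBS replicates 1 and 2. The markers summed to 345 and 509 CPM in PBS replicates 1 and 2. A link between these markers and Il27 was not tested.

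Gadd45g, a stress-induced gene of the GADD45 family, stood at 29.5, 88.6, 86.4 and 72.5 CPM in IL-10/Fc against 19.8 and 9.90 CPM in PBS, without overlap (log2 fold change 2.22, SE 0.55, edgeR adjusted p = 0.231), and was called higher in the authors' deposited table. Prdm1, which encodes the effector factor BLIMP-1, stood at 17.8, 19.8, 27.9 and 30.1 CPM in IL-10/Fc against 9.55 and 14.1 CPM in PBS (edgeR adjusted p = 0.295), and was called higher in the authors' deposited table (adjusted p = 0.0457). Bcl2l1, which encodes the survival protein BCL-XL, lay the other way from Mcl1, with 32.4 CPM in IL-10/Fc (SD 8.94, n = 4) and 64.5 CPM in PBS (SD 22.0, n = 2), without overlap (edgeR adjusted p = 0.295).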
